A study of Mus musculus with 12 samples.

Results

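Open chromatin of resting regulatory T cells (Treg) was described from the 3 ATAC-seq libraries of unstimulated wild-type (WT) Treg, out of 12 libraries in the series. ATAC-seq uses Tn5 transposase, which inserts sequencing adapters into accessible DNA, so that reads collect where chromatin is open. The 3 ex vivo WT libraries were chosen by their labels, and the 118680 regions of the deposited table were kept, of which 118480 lay on the chromosomes of the mouse genome mm9 used here. The other 200 regions had no read in these libraries. The study deposited 4 groups of 3 libraries, WT and Ikzf1-cko Treg, each ex vivo and stimulated, and the other 3 groups are not used here. WT stands for Foxp3-YFP-Cre mice, which carry a knock-in of YFP and Cre at Foxp3, and the cells were YFP+ Treg sorted by FACS, left unstimulated, with 100000 cells per library. The Cre is therefore present in the WT cells too, and expressed where Foxp3 is expressed. The labels name the spleen as the tissue, while the age and sex of the mice and the number of mice behind each library are not given in the sources used here. The methods call the libraries biological replicates, and the SD over them may be technical in part.

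Treg are CD4+ T cells that restrain other immune cells, and their identity rests on the transcription factor Foxp3, on the high affinity IL-2 receptor (Il2ra) and on inhibitory receptors such as Ctla4. Genes that a cell lineage uses usually have open chromatin at their start sites and at enhancers in introns or flanking sequence, whereas start sites rich in CpG dinucleotides are open in most cell types. Conventional effector T cells open cytokine genes such as Ifng, Il4 and Il17a, which resting Treg are known to keep mostly silent.

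The openness of a region was its FPKM, the reads on the region scaled to its length in kb and to the total of reads that the library has on all regions. The libraries held 5197669, 7547992 and 8596567 counted reads in replicates 1, 2 and 3, with a median of 17, 24 and 23 reads per region. A region was called open when its FPKM was at or above the median of its library in each of the 3 libraries (8.21, 8.0 and 6.93 FPKM), and strongly open when it was at or above the 90th percentile in each (23.9, 24.3 and 25.4 FPKM). By these rules 44416 regions (37.5%) were open and 10218 (8.62%) strongly open. The words are relative to the other regions, since every region in the table had been called as a peak in at least some libraries of the series. A place with no region was not called as a peak, which does not show that its chromatin was closed.

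Sequences from the mm9 reference genome are given here for the regions on which the account below turns. The first 4 are the central 300 bases of the strongest region within 20 kb of a Treg gene that had that gene as the nearest and no exon in the window, and the fifth is the same for Ifng. The next are the strongest intronic and intergenic regions outside the clusters of strong regions described below, and the last is the 300 bases before the start site of Qdpr, the strongest start site with no exon there. They lie in order at chrX:7161052-7161351, chr2:11575029-11575328, chr1:60939700-60939999, chr1:69738816-69739115 (reverse strand), chr10:117895918-117896217, chr2:49308353-49308652, chr9:19426448-19426747 and chr5:45841475-45841774 (reverse strand). Capitals mark matches to the motifs searched, on either strand.
Foxp3 intron: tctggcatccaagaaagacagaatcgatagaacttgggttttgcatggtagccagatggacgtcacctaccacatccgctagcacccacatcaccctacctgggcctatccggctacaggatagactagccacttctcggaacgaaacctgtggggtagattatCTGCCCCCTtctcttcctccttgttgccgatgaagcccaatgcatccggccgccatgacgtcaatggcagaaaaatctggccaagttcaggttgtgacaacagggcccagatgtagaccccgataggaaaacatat
Il2ra intron: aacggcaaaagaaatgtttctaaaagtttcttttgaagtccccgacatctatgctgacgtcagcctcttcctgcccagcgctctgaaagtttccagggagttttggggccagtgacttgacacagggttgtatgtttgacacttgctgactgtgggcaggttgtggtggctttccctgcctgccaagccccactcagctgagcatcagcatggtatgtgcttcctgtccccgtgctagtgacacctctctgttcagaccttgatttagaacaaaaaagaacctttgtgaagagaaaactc
Ctla4 upstream: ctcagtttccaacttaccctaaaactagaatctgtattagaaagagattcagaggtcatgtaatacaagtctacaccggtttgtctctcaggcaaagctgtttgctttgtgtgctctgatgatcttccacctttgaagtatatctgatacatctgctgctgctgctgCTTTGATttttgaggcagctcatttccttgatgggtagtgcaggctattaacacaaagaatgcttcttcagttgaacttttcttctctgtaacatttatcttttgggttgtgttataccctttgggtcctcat
Ikzf2 upstream: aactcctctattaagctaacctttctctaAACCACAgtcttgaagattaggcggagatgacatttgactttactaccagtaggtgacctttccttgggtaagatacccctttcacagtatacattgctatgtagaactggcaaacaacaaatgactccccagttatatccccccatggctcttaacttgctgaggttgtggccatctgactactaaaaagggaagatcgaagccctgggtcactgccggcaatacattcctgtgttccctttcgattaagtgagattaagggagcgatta
Ifng downstream: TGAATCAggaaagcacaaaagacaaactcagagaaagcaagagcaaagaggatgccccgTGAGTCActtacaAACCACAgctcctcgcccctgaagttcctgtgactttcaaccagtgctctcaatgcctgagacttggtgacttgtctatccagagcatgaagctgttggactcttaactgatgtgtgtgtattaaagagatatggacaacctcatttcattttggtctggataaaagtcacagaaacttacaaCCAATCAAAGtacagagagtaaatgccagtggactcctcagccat
Epc2 intron: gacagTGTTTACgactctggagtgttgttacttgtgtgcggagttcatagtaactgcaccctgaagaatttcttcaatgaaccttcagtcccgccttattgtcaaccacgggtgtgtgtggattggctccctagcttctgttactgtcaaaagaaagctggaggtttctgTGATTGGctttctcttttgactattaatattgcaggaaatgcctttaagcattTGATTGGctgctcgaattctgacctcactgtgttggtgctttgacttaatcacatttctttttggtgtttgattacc
Zfp317 intergenic: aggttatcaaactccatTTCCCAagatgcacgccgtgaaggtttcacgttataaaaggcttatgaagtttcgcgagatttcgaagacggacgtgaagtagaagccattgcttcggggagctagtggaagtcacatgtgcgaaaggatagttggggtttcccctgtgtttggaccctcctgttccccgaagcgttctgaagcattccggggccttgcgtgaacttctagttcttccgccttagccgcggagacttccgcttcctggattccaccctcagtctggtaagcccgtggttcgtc
Qdpr before start: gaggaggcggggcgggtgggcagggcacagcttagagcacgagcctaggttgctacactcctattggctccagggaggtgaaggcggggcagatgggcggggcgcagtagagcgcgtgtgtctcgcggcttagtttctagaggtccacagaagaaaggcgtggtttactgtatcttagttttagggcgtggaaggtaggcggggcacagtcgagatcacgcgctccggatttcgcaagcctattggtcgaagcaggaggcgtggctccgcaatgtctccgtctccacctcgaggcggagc
The 14 motifs searched were CCGGAAGT (ETS), TGTGGTT (RUNX), AGGNGGCAG (CTCF), GCGCATGCG (NRF1), ACTACAATT (ZNF143), CCAATCA (NF-Y), GGGGCGGGG (SP and KLF), TGANTCA (AP-1), GGGANTTCC (NF-kB), CTTTGAT (TCF), TGTTTAC (forkhead), AGATAAG (the GATA factors), TGGGAA (Ikaros family) and CAGGTG (E-box). The Foxp3 window held 11 CpG dinucleotides and a CTCF match, a motif found in 5.42% of the central windows of all regions. The Ctla4 window held a TCF match (4.78% of all windows), the Ikzf2 window a RUNX match (9.73%) and the Ifng window matches to AP-1 (14.3%), RUNX, NF-Y (3.80%) and TCF, of which the NF-Y and TCF matches overlap. The Il2ra window and the bases before Qdpr held no match, which says only that these letters are not there. The Epc2 window held NF-Y matches and a forkhead match (3.69% of all windows), and the window near Zfp317 an Ikaros family match (23.5%).

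The mean FPKM ranged from 0.967 to 452 with a median of 7.60, and 459 regions reached 100 FPKM. Reads were concentrated in few regions. The strongest decile held 49.1%, 49.4% and 52.7% of the counted reads in replicates 1, 2 and 3, and the strongest 1000 regions held 11.3%, 11.1% and 11.7%.

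The 8 strongest regions were not single gene starts but members of 3 tight clusters. The rule that gathers these clusters was chosen after the values were seen: at least 3 of the strongest 200 regions within 20 kb of each other, with the pair at AY036118 added by name. The pair at chr17:39980016-39985781 held the 2 highest values, and its first region had 547, 479 and 329 FPKM in replicates 1, 2 and 3 (452 ± 112, SD, n = 3), so that replicate 3 was the lowest. The cluster at chr11:3028291-3094296 lies over Sfi1, which encodes a centrosome protein, and its neighbours, and held 40 regions of 88.9 to 400.0 FPKM, of which 34 were among the strongest 200. Its strongest region, at chr11:3063461-3064221, had 373, 436 and 391.6 FPKM. The cluster at chr2:98502372-98507548 over Gm10800 and Gm10801 held 3 regions of 232 to 305 FPKM. In its regions a median of 78.9% of the bases had a match of at least 100 bases and 90% identity elsewhere in the genome, against 14.6% at AY036118 and a median of 0% at Sfi1, where 8 of 40 regions had any such match. Among the other 955 regions of the strongest 1000, 58 had one. None of the 10 strongest regions matched several further places over 90% of its length. The search started from long runs of identical bases, so more diverged copies could be missed and these shares may be too low. The part of repeated sequence in these values was not tested, and the regions were not compared with a mouse blacklist.

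Outside the clusters the strongest regions were start sites, with close values in the 3 libraries. The highest lay at chr9:4309086-4310354 over the starts of Kbtbd3 and Aasdhppt, the latter an enzyme that attaches phosphopantetheine to carrier proteins, with 274, 264 and 285 FPKM. The start of Qdpr, which regenerates tetrahydrobiopterin (chr5:45841010-45841948), had 256, 246 and 268 FPKM. These were the only 2 of the 10 strongest regions that lay outside the clusters. They were followed by the starts of Mon1b, which acts in endosome maturation (254 ± 19.3 FPKM), Hbp1, a transcriptional repressor (242 ± 5.24), and Sel1l, part of the machinery that degrades misfolded proteins of the endoplasmic reticulum (240.4 ± 16.8; SD, n = 3). The next were a start shared by 4932412D23Rik and Zbtb20, a zinc finger repressor (235 ± 5.38), and those of Lnpep, an aminopeptidase (231 ± 14.3), Klf6, a zinc finger transcription factor (219 ± 10.5), Rgs2, which shortens G protein signals (213 ± 11.5), and Evi5l (211 ± 7.56). No gene of the Treg identity or T cell lists was among them, and from Qdpr on, neighbours in this order differed by less than the larger of their SDs. The strongest 1000 regions were much alike between libraries, since 858 were among the strongest 1000 of each library.

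Strong introns and intergenic regions were weaker than strong starts. The strongest intron region outside the clusters, in Epc2, a chromatin regulator (chr2:49308294-49308710), had 156, 147 and 153 FPKM and ranked 97 of all regions. It was followed by introns of Gm17384 (146 ± 10.2), of Cblb, a ubiquitin ligase that restrains T cell receptor signalling (135 ± 1.09), of Abl2, a tyrosine kinase (131 ± 7.23), and of Elovl6, a fatty acid elongase (128 ± 7.53). With the clusters kept, the 5 strongest intron regions all lay over Sfi1, from 207 to 246 FPKM. The strongest intergenic region outside the clusters, whose nearest start is that of Zfp317 (chr9:19426211-19426983), had 200.4, 175 and 201 FPKM. The next lay near Zfp78 (176 ± 9.16), on chromosome 16 at chr16:51690724-51691477 (167 ± 0.659), and near Gm10775 (165 ± 5.0) and Gm5614 (163 ± 41.6). The last of these stood apart by its spread, with 194, 179 and 115 FPKM and replicate 3 the lowest. In these intergenic regions, in order, the ratio of observed to expected CpG was 0.756, 0.624, 0.160, 0.717 and 0.594. The median between genes was 0.174. Position rests on the annotation alone, and starts missing from it were not sought. The regions named outside the clusters were chosen after the values were seen.

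**Figure D1:**
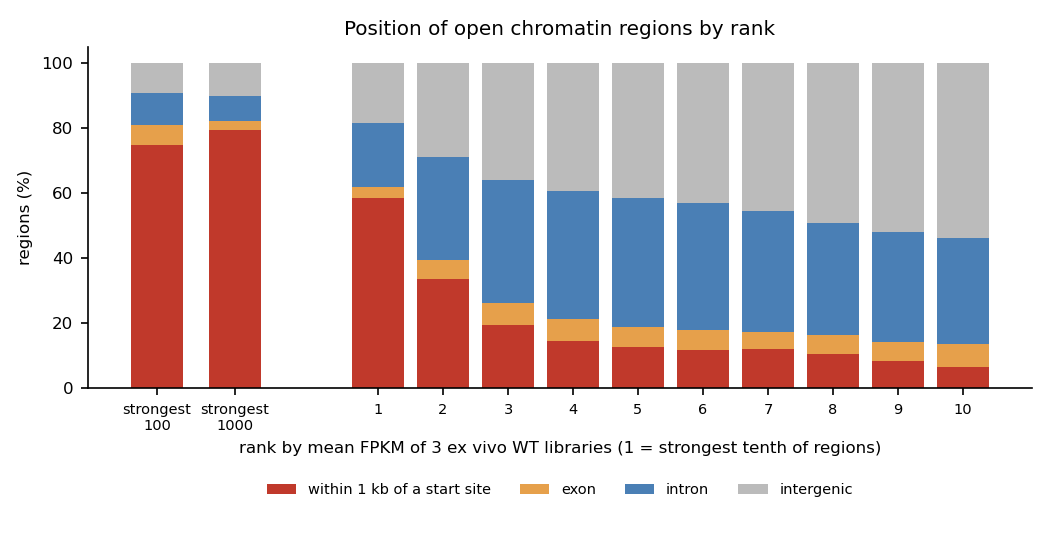
Share of regions (%, vertical axis) within 1 kb of an annotated start site, in exons, in introns and between genes, for the strongest 100 and 1000 regions and for each decile of the ranking by mean FPKM over the 3 ex vivo WT libraries (1 = strongest). The start site share was 58.7% in the strongest decile and 6.63% in the weakest, and the intergenic share 18.3% and 53.9%.

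Start sites made up 22335 of all regions (18.9%) but 79.5% of the strongest 1000. In the strongest 1000 of each library taken alone the share was 78.9%, 78.9% and 80.6%. It was 75% among the strongest 100 and 69.2% among the strongest 5000. Regions within 1 kb of a start held 50.0%, 50.1% and 52.5% of the counted reads in replicates 1, 2 and 3. Their median was 14.3 FPKM, against 7.46 in exons, 7.48 in introns and 6.59 between genes.

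The share of open regions was lower in each class of distance farther from the nearest start. Of regions within 1 kb, 66.1% were open and 28.2% strongly open. Of those at 1 to 10 kb, 42.3% were open and 6.59% strongly open, and at 10 to 50 kb these shares were 32.1% and 3.71%. Beyond 100 kb 12.4% were open and 1.22% strongly open, and 9 of the strongest 1000 regions lay there. Even so, 3919 of the 10218 strongly open regions (38.4%) lay more than 1 kb from any start, 1893 of them in introns, 1743 between genes and 283 in exons.

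The strongest regions were longer and richer in CpG. The median ratio of observed to expected CpG was 0.555 in the strongest decile and 0.154 in the weakest, and the median length was 930 and 371 bases. The median GC content differed less, at 54.4% and 50.5%. In the strongest 1000 regions the SP and KLF motif was found in 16.7% of central windows (3.6% of all regions), NF-Y in 15.1% (3.80%), ETS in 5.1% (1.14%) and NRF1 in 2.7% (0.345%). These are motifs of factors that bind at CpG-rich promoters. Away from starts the same motifs were also found in a larger share of the strongest 1000 regions than of all regions there, with SP and KLF in 3.8% (1.73%), NF-Y in 6.0% (3.47%) and ETS in 1.2% (0.620%). AP-1, the motif of Fos, Jun and Batf proteins, was found in 26.4% of these strongest regions (15.8% of all regions away from starts), RUNX in 16.5% (10.8%) and NF-kB in 3.6% (1.90%). The E-box was found in 25.2% and 26.1%. The Ikaros family motif was found in 18.4%, against 24.3% of all regions away from starts, and CTCF, the insulator protein, in 3.6% against 5.50%. Longer regions and their base composition moved with rank, and their part in these shares was not tested.

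**Figure D2:**
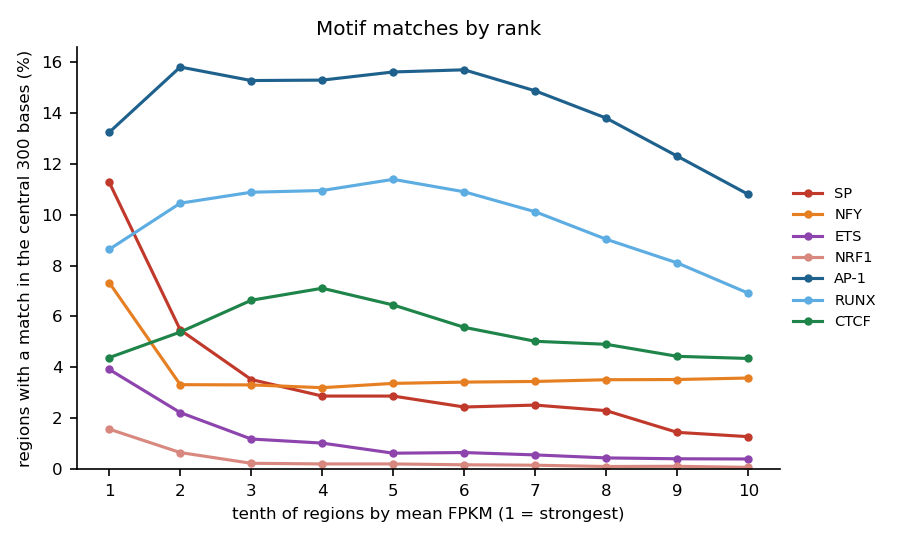
Share of regions with a motif match in the central 300 bases (%, vertical axis) by decile of the ranking by mean FPKM (1 = strongest), for 7 of the motifs searched. The SP, NF-Y, ETS and NRF1 lines are highest in the strongest decile, while the AP-1 and RUNX lines are lower there than in deciles 2 to 8.

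The same held at gene starts. In the 300 bases before the outermost starts of 22225 protein coding genes, SP and KLF matches were found in 13.98%. They were found in 22.8% of genes with a strongly open start and in 6.55% of genes without an open start. The open start could be another annotated start of the gene. The shares for ETS were 3.51%, 6.71% and 0.782%, and for NF-Y 8.51%, 14.3% and 6.12%. For AP-1, with the lowest share in genes with a strongly open start, they were 7.12%, 4.74% and 9.48%.

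The 3 libraries ranked the regions alike, with Spearman correlations across regions of 0.794 (replicates 1 and 2), 0.819 (1 and 3) and 0.858 (2 and 3), where regions are not independent replicates. The coefficient of variation over the libraries was 9.96% in the strongest decile, beside 8.07% from counting alone, and 42.4% in the weakest, beside 35.6%. Weak regions were lower in replicate 3, with a median in the weakest decile of 3.69, 3.71 and 2.5 FPKM, and strong regions slightly higher, with 35.9, 36.6 and 38.9 FPKM in the strongest decile. Values below about 5 FPKM rest on few reads, since 10 reads on a region of median length were worth 4.69, 3.23 and 2.84 FPKM, and 69.4% of regions had at least 10 reads in each library.

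**Figure D3:**
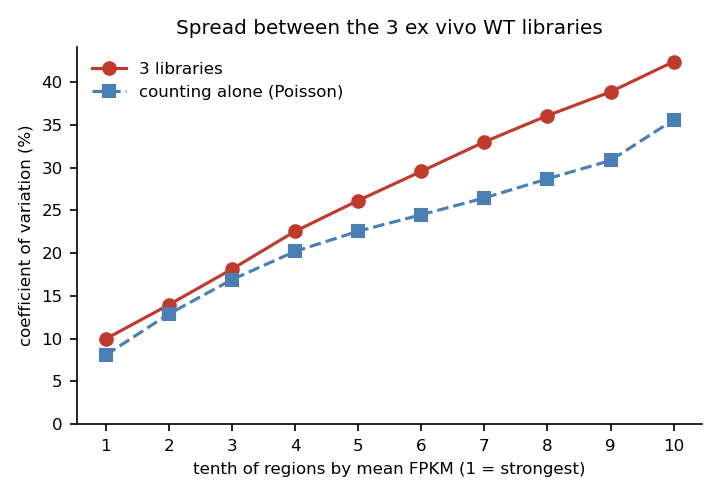
Coefficient of variation of FPKM over the 3 ex vivo WT libraries (%, root mean square over regions, red) and the value that Poisson counting alone gives (blue, dashed), by decile of the ranking by mean FPKM (1 = strongest). The spread rises from 9.96% to 42.4% and stays above the counting line in each decile.

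The start sites of Treg and T cell genes were nearly all open in resting Treg. A gene's start level was the mean FPKM of the strongest region within 1 kb of any of its annotated starts. Of the 20 genes of the Treg identity list 18 had an open start and 12 a strongly open one, and of the 30 genes of the T cell list 30 were open and 17 strongly open. Over all protein coding genes 51.7% had an open start and 27.3% a strongly open one. In these bulk libraries a start open in few cells and one weakly open in all cells cannot be told apart. At starts with few CpG (an observed to expected ratio under 0.6), 15 of 17 Treg identity and 24 of 24 T cell genes were open, against 25.3% of all genes of that kind. Here and below this ratio was taken in the 1 kb around the outermost start, whereas the open start could be any annotated start of the gene. At Foxp3, for one, the open start was not the outermost. Of CpG-rich starts 83.0% were open in all. The 12 housekeeping genes were all open and 11 strongly open, with the highest level, 61.6 FPKM, at Actb, the cytoskeletal actin. The median start level of genes with a region was 29.4 FPKM in the Treg identity list, 31.5 in the T cell list and 34.9 in the housekeeping list, against 21.5 over all genes.

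**Figure D4:**
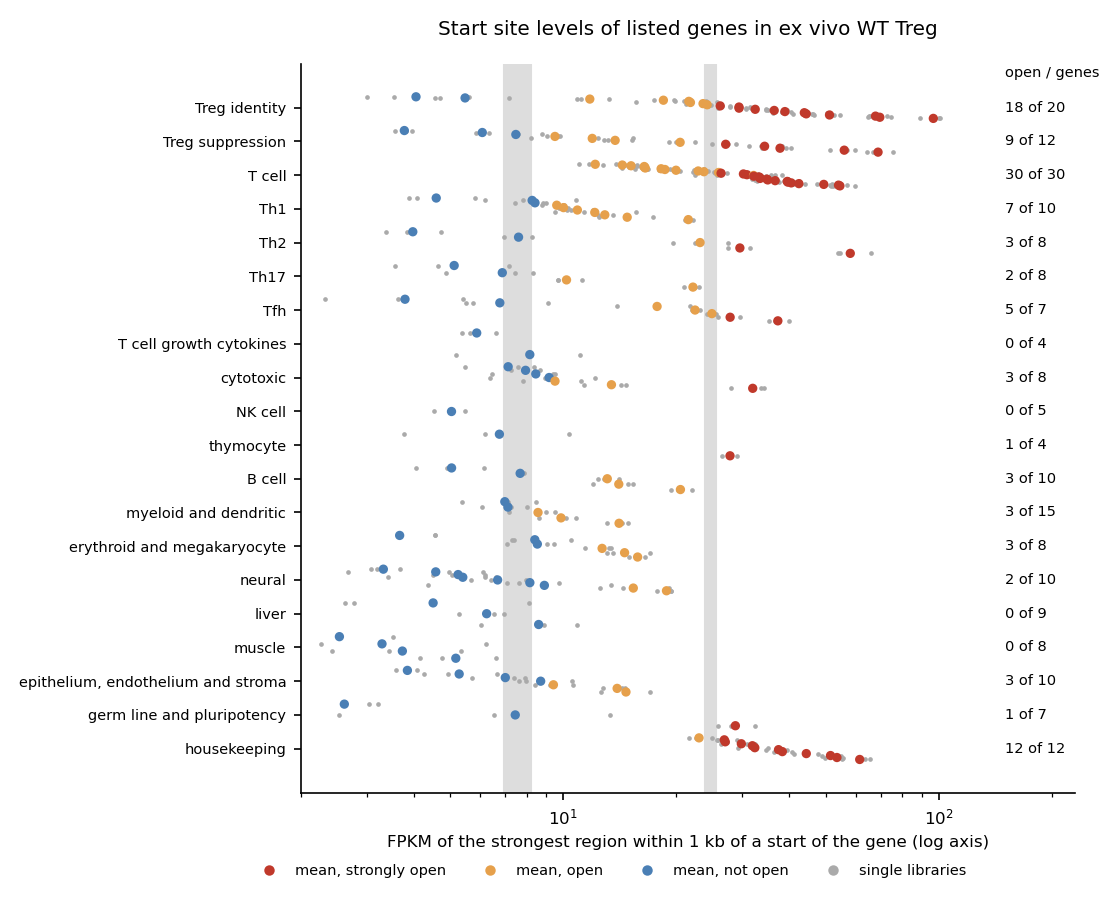
FPKM of the strongest region within 1 kb of a start (log axis) for each gene of the 20 lists that has such a region, with the mean of 3 ex vivo WT libraries coloured by call and single libraries as small grey points. Grey bands mark the range over libraries of the median (6.93 to 8.21) and of the 90th percentile (23.9 to 25.4), and the figures at the right count open starts of all genes in the list. In the Treg identity list 18 of 20 genes were open, against 6 of 44 outside blood.

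Within the Treg identity list the most open start was that of Tigit, an inhibitory receptor, with 100.4, 88.9 and 101 FPKM in replicates 1, 2 and 3. Tnfrsf9, the costimulatory receptor 4-1BB, followed with 64.8, 69.5 and 74.7 FPKM, and Capg, an actin capping protein, with 65.1, 65.5 and 72.8 FPKM, and the values of these 2 overlapped. Only 2 starts of the list were not open. Itgae, which encodes the integrin CD103, had 3.54, 5.61 and 3.00 FPKM, and Klrg1, a receptor of differentiated lymphocytes, had 4.69, 7.17 and 4.56 FPKM, all of them under the library medians. The lowest open start was that of Foxp3 itself, with 13.2, 11.1 and 10.9 FPKM at an alternative start 6.87 kb into the gene. The region over its outermost start had 6.38, 6.46 and 7.26 FPKM and was not open. The open start of Foxp3 was above 29.4% of the start levels of all genes with a region.

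The T cell list was led by Klf2, a factor that keeps T cells in circulation (51.5, 52.3 and 59.8 FPKM), Cd28, the costimulatory receptor (54.0, 51.4 and 56.8), and S1pr1, the receptor that lets T cells leave lymphoid organs (51.9, 47.3 and 48.9). Its lowest members were Thy1, a surface glycoprotein (11.0, 13.8 and 11.7 FPKM), Cd6, a coreceptor (15.7, 12.8 and 14.6), and Zap70, a kinase of T cell receptor signalling (15.7, 14.3 and 15.4). The libraries overlapped between Klf2 and Cd28 and between Cd6 and Zap70, whereas Thy1 was below Zap70 and S1pr1 below Cd28 in each library.

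Among genes of Treg suppressive function 9 of 12 starts were open and 5 strongly open. The highest were Prdm1, the regulator Blimp-1 of effector Treg (64.5, 66.6 and 75.6 FPKM), Entpd1, the ectoenzyme CD39 (59.8, 51.4 and 56.8), and Tgfb1, the cytokine TGF-beta (33.8, 40.4 and 39.1). Il10, which encodes the inhibitory cytokine IL-10, was open but low, with 12.3, 15.3 and 8.20 FPKM from 10, 18 and 11 reads. Both subunits of IL-35 were not open: Ebi3 had 3.82, 3.94 and 3.56 FPKM and Il12a 5.85, 6.33 and 6.07 FPKM. Lag3, an inhibitory receptor, had 7.59, 8.77 and 6.06 FPKM and reached the library median in replicate 2 alone.

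Around the Treg genes most open chromatin lay away from the start. Of 12 regions within 20 kb of the Foxp3 start 9 were open. The open ones before the start, from -14.0 to -5.17 kb, lay nearest to starts of the neighbours Ppp1r3f and 4930524L23Rik. Those inside Foxp3 lay at 4.40, 6.87 and 11.8 kb. The strongest of the 9 was the start of 4930524L23Rik at -5.17 kb, with 42.2, 45.2 and 46.5 FPKM. Inside Foxp3 the strongest was the intron region at 4.40 kb, whose centre is printed above, with 21.7, 22.4 and 22.3 FPKM. This intron is known to hold CNS2, a CpG-containing enhancer that keeps Foxp3 expressed in dividing Treg. The coefficient of variation over the 3 libraries was 1.80%, and the value was above that of the outermost start in each of them.

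At Il2ra 15 of 16 regions within 20 kb were open. The start had 19.8, 20.9 and 24.0 FPKM, and an intron region at 10.76 kb had 42.4, 50.1 and 54.5 FPKM, higher than the start in each library. A second intron region at 8.92 kb had 33.5, 35.7 and 38.3 FPKM. At Ctla4, 12 of 18 regions were open. The strongest was an upstream region at -4.00 kb with 29.1, 36.9 and 38.0 FPKM, and the outermost start had 23.3, 22.4 and 22.7 FPKM. The start level of Ctla4 over all its annotated starts was 51.2, since it was taken at an alternative start. At Ikzf2, which encodes the Ikaros family factor Helios, 16 of 17 regions were open and 6 strongly so. The region counted as the Ikzf2 start had 35.1, 34.8 and 39.5 FPKM. It was centred at -1.5 kb and did not cover the outermost start. An upstream region at -6.43 kb had 34.7, 34.4 and 42.2 FPKM, values that overlap with those of the former. Cd4, the coreceptor gene, had 7 of 9 regions open, led by an intron region at 2.79 kb with 29.1, 30.2 and 31.5 FPKM. Its open regions from -12.4 to -19.7 kb lay nearest to starts of Lag3.

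**Figure D5:**
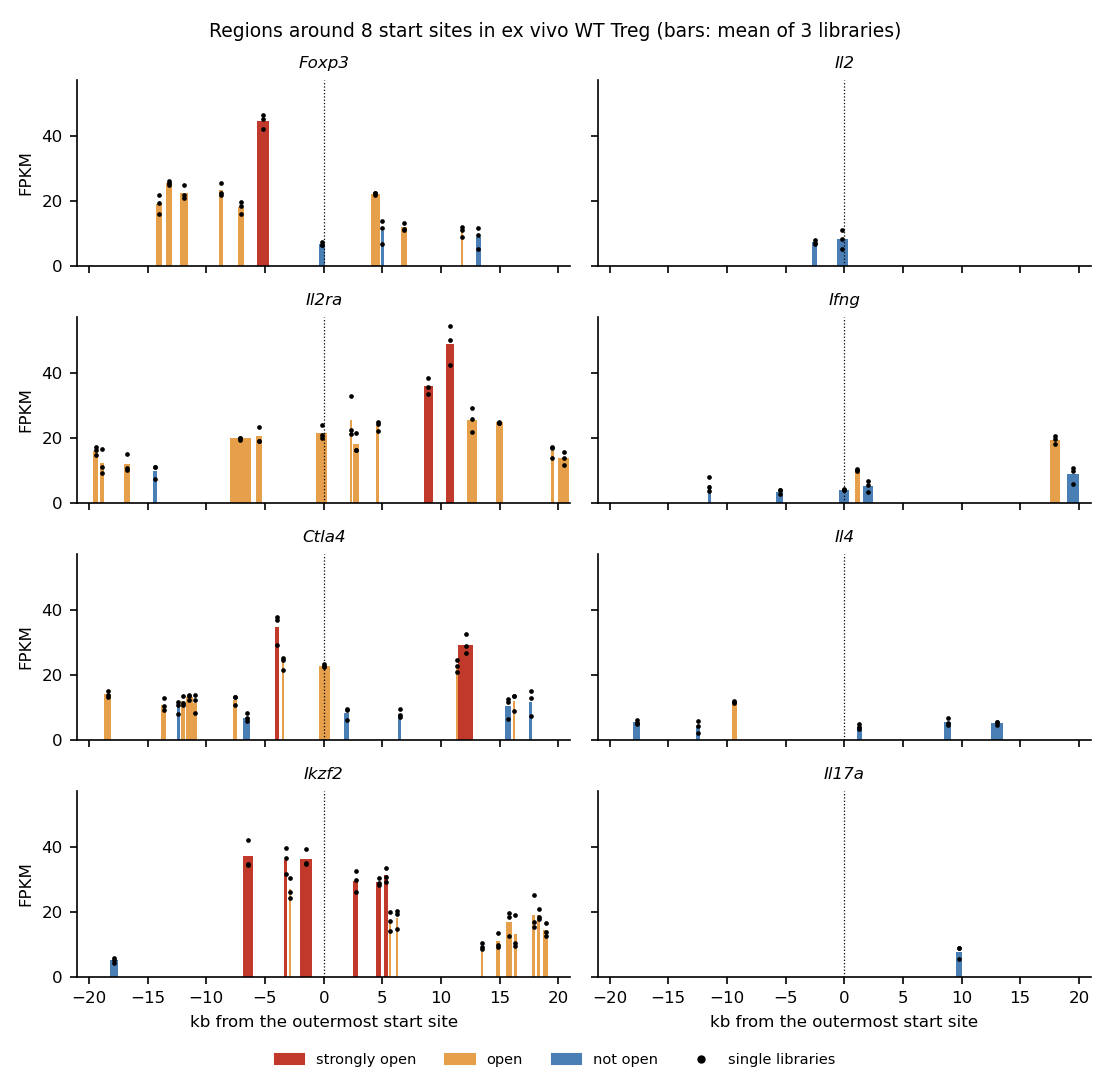
FPKM (vertical axis) of all regions within 20 kb of the outermost start (dotted line, distance in kb) of 4 Treg genes on the left and 4 effector cytokine genes on the right. Bars are means of the 3 ex vivo WT libraries at the width of the region, points are single libraries and colours give the call. The Treg genes have 9 to 16 open regions each, the cytokine genes 0 to 2. Regions are counted by distance alone, and the open ones before the Foxp3 start lie nearest to starts of neighbouring genes.

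Of the effector cytokine genes, Il2, Il17a, Il4 and Ifng had few open regions in the same window. At Il2, the T cell growth factor that Treg consume but do not make, neither of 2 regions was open, and the start had 5.17, 11.1 and 8.17 FPKM in replicates 1, 2 and 3, under the library median in replicate 1 and above it in the other two. At Il17a there was a single region, at 9.82 kb, with 8.73, 8.88 and 5.51 FPKM. At Il4, 1 of 6 regions was open, at -9.37 kb with 11.96, 11.7 and 11.5 FPKM. An alternative start 1.29 kb into the gene had 4.71, 3.84 and 3.37 FPKM, and no region covered the outermost start. At Ifng, 2 of 7 regions were open. One lay 1.11 kb after the start with 9.72, 10.0 and 10.3 FPKM, and the other, printed above, at 17.96 kb with 19.7, 18.0 and 20.5 FPKM. The outermost Ifng start itself had 3.89, 4.10 and 3.88 FPKM, below each library median. The edge of the region at 1.11 kb lies within 1 kb of the start, so that Ifng counts as open below. Tnf and Il9 differed, in loci reaching 10 kb beyond the gene. All 9 regions of the Tnf locus were open, led by one at 1.39 kb with 48.1 FPKM, and all 3 of the Il9 locus, up to 29.0 FPKM. The start level of Tnf itself was 9.60 FPKM. Regions are counted by position alone, so those of neighbouring genes can be among them. Il3, Csf2, Il5, Il13, Il17f, Il21 and Il22 had at most 1 open region in their loci.

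Over the effector lists, 20 of 45 genes (44.4%) had an open start and 5 a strongly open one, with a median level of 10.0 FPKM where a region was found. The share over all genes was 51.7%. At starts with few CpG 14 of 38 (36.8%) were open, against 25.3% of all genes of that kind, and at CpG-rich starts 6 of 7 were open, against 83.0%. The Th1 list had 7 of 10 open and none strongly open, from 4.59 FPKM at Cxcr3, a chemokine receptor, to 21.5 at Stat4, which transmits IL-12 signals. Tbx21, the Th1 master regulator T-bet, had 10.8, 7.82 and 6.18 FPKM and was not open. The Th2 list had 3 of 8 open. These were Gata3, the Th2 regulator that Treg also use (54.5, 53.8 and 65.9 FPKM), the chemokine receptor Ccr4 (27.5, 29.7 and 31.4) and the IL-4 receptor chain Il4ra (19.6, 22.4 and 27.5), while the cytokine genes Il5 and Il13 and the prostaglandin receptor gene Gpr44 had no region near a start. The Th17 list had 2 of 8 open, Rora, a nuclear receptor (22.1 ± 1.05 FPKM), and Ccr6, a chemokine receptor (10.2 ± 0.903). The cytokine genes Il17a, Il17f and Il22 and the IL-23 receptor gene Il23r had no region near a start.

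The follicular helper list had 5 of 7 open, led by Bcl6, its master repressor (35.4, 36.6 and 39.8 FPKM), and Pdcd1, the inhibitory receptor PD-1 (29.6, 28.0 and 25.9 FPKM). Its cytokine gene Il21 had 2.31, 5.41 and 3.64 FPKM and was not open. None of the 4 growth cytokine genes had an open start, and Il3 and Il9 had no region near one. Of 8 cytotoxic genes 3 were open, with Fasl, the ligand of the death receptor Fas, at 34.2, 28.0 and 33.7 FPKM, Cd8b1, a chain of the CD8 coreceptor, at 11.4, 14.7 and 14.3, and Gzma, a granzyme, at 9.56, 11.2 and 7.79. Perforin (Prf1) had 8.67, 7.88 and 7.24 FPKM and Cd8a 9.40, 9.49 and 6.44 FPKM, each of them under the median of at least 1 library.

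In the lists of other blood lineages, which here include immature T cells of the thymus (thymocytes), 10 of 42 genes (23.8%) had an open start, against 51.7% of all genes. Most of these genes have starts with few CpG, of which 8 of 39 (20.5%) were open, a share near the 25.3% of all such genes. No natural killer gene of 5 was open and 4 had no region near a start. Of 10 B cell genes 3 were open, Cr2, a complement receptor (20.5 FPKM), and the transcription factors Ebf1 (14.1) and Pax5 (13.1), while the defining genes Cd79a and Ms4a1 had no region near a start. Of 15 myeloid and dendritic genes 3 were open, all of them transcription factor genes, Cebpa (14.1), Sfpi1, which encodes PU.1 (9.86), and Zbtb46 (8.56), while 10, among them Lyz2, Csf1r and Itgam, had no region near a start. Of 8 erythroid and megakaryocyte genes 3 were open, among them Itga2b, an integrin of platelets (15.8), and Klf1, an erythroid transcription factor (14.6). Of 4 thymocyte genes found, Cd1d1, which presents lipids, was open with 26.5, 28.9 and 28.0 FPKM, and Rag2 and Dntt had no region near a start. Their loci, with 10 kb on each side, did hold open regions. At Dntt 5 of 5 were open, led by an intron region at 1.93 kb with 53.0 FPKM, at Rag2 3 of 5 and at Rag1 1 of 4. Cd1d1 had the only strongly open start among the 42 genes of these lists.

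Outside blood 6 of 44 genes (13.6%) had an open start, against 51.7% of all genes. Without replicate 2, 10 had one (22.7%, against 52.7%). Of their starts with few CpG 4 of 32 (12.5%) were open, and of their CpG-rich starts 2 of 12 (16.7%), against 25.3% and 83.0% of all genes of each kind. None of 9 liver and none of 8 muscle genes was open. The open ones were Mtap2, a microtubule protein of neurons (18.8 FPKM), Pax6, an eye and brain transcription factor (15.4), Col1a1, a collagen (14.7), Epcam, an epithelial adhesion molecule (13.9), Pdgfra, a growth factor receptor (9.41), and Dazl, a germ cell RNA binding protein. Dazl was the only one strongly open, with 25.8, 27.9 and 32.4 FPKM. Of 1087 olfactory receptor genes 4 (0.368%) had an open start, and of 82 ribosomal protein genes 78 (95.1%) had one and 42 (51.2%) a strongly open one.

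The loci of Treg and T cell genes held many open regions besides the start. From 10 kb before to 10 kb after the gene, a median of 7.5 regions were open in the Treg identity list, 6 in the suppression list and 11.5 in the T cell list, against 2 in the effector lists, 1 in other blood lineages, 0.5 outside blood and 1 over all genes. Without replicate 1 the median over all genes was 2, and without any one library that outside blood was 1. Per 100 kb of locus the medians were 19.9, 12.1, 19.6, 4.02, 1.94 and 0.522, and 2.94 over all genes. Of all genes 7362 (33.1%) had no open region in their locus, and 118 (0.531%) had 20 or more. The latter included 9 T cell genes and 1 Treg identity gene, Ikzf2. Open regions away from starts in the Treg identity loci had a median of 18.2 FPKM and 29 of 144 (20.1%) were strongly open, and in the T cell loci these values were 17.2 FPKM and 71 of 366 (19.4%). Over all such regions they were 13.6 FPKM and 13.2%, and in the suppression loci 4 of 51 (7.84%) were strongly open. AP-1 matches were found in 25.1% of those of the T cell loci and 13.9% of those of the Treg identity loci, against 18.8% overall.

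The gene with the most open regions, Gm20388 with 182, spans a locus of 4455 kb, and Fgfr2, a growth factor receptor gene with 71, one of 3029 kb. Sfi1 followed with 49 in a locus of 81.6 kb, in the cluster described above, and Eif4e3, a cap binding protein gene, also with 49. The next loci were those of Bach2, a repressor that keeps T cells quiescent (48 of 77 regions), Prkch, a protein kinase C (47 of 65), Tox, a T cell transcription factor (43 of 63), Ikzf2 (42 of 62), Ubac2 (40 of 46) and Akap13 (39 of 78), with Ets1, a lymphoid transcription factor, level with the last at 39 of 48. Among the 2851 loci with at least 5 open regions, the reads per kb were highest at Sfi1, Drg1 and Hjurp, followed by Junb, a subunit of AP-1 (13.5 CPM per kb, where CPM are reads scaled to the library total), Rgs2 (11.4) and Zfp36, which destabilizes cytokine mRNAs (11.0). The Drg1 locus reaches into the cluster over Sfi1, and the start level of Drg1 itself was 30.0 FPKM. Tnfrsf18, the Treg receptor GITR, ranked 9 with 9.43 CPM per kb, and Tnfrsf4, the receptor OX40, ranked 23 with 8.22. The loci of Tnfrsf18 and Tnfrsf4 overlap and share regions. Other Treg identity genes ranked lower, with Ctla4 at 170 (5.09 CPM per kb), Il2ra at 623 (3.15) and Foxp3 at 646 (3.08). The genes named for reads per kb were chosen after the values were seen.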

How the data were processed

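ATAC-seq reads were counted in 12 libraries of sorted Treg, and the 3 ex vivo WT libraries, grouped by their labels, were used. The authors aligned reads with Bowtie2, removed duplicates and blacklisted regions, called peaks per replicate with MACS2 and merged the peaks of all groups into one set of regions, so that a region weak here may have been called in another group. The methods print a human build for the alignment, whereas the labels name mm9 and the regions have mouse chromosomes. For ATAC-seq they cite a blacklist without naming a mouse version, so whether mouse blacklist regions were removed cannot be told. The authors deposited a raw read count per region and library and an FPKM, found to be the count per kb of region and scaled to the reads counted in that library. Without background normalization, a value is a share of that library's counted reads. A deposited table of the authors' differential regions (log2 fold changes, F statistics, p-values) was not used.

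Regions were ranked by mean FPKM and placed on the GENCODE annotation of mm9 as start site (within 1 kb), exon, intron or intergenic. Gene lists held 206 symbols, of which 205 were found, and some genes of the lists enter the counts but are not reported here by name. The members and lists were chosen with earlier results of these data known. Regions and genes were named from the 10 strongest regions, with and without copied sequence, the 5 strongest over start sites, introns and intergenic sequence, the 3 highest and lowest starts of each list, starts not open in the Treg identity and T cell lists, open starts of other lineages where at most 5 were open, the 10 loci with the most open regions, and regions within 20 kb of 9 genes, and the rest are given by counts and ranges. Genes singled out beyond this were chosen after their values were seen, such as Tbx21, Prf1, Cd8a and the genes named for lacking a region. Copies elsewhere were sought with blastn 2.17.0 for the strongest 5000 regions, from long runs of identical bases, so diverged copies could be missed. No test was made, since the design has 1 group, and values are means ± SD of 3 libraries. Scripts were tested on simulated counts and used Python 3.11.15, pandas 2.3.3, NumPy 2.4.6, SciPy 1.17.1, pysam 0.24.0 and Matplotlib 3.10.9. Alternatives were leaving out each library, ranking by CPM, counts scaled to the library total alone, other distances, thresholds and flanks, and leaving out copied or clustered regions.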

Additional observations from a re-analysis of the deposited data

How the results depend on the processing

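No paired analysis was possible because the values come from 1 group and from no test. Of 172 alternatives, 134 moved a value by less than the spread of the libraries or, for counts, by at most 1.5 times, and 38 moved it further. The start site share of the strongest regions, 79.5%, was 81.1% without copied and clustered regions (an alternative chosen after seeing the data), 90.2% ranked by CPM, 77.3% and 83.3% with start sites within 0.5 and 2.5 kb, and 75% and 69.2% in the strongest 100 and 5000. With openness set at the 75th percentile, open starts numbered 6 (50%) in the suppression list and 11 (24.4%) in the effector lists. They numbered 5 (11.9%) in other blood lineages and 3 (6.82%) outside blood, against 43.1% of all genes. Outside blood they numbered 13 at the 25th percentile (29.5%, against 58.8% of all genes) and 12 by CPM (27.3%, against 58.7%). With a library left out they numbered 6 to 10 there, against 52.5% to 52.8% of all genes. Within 0.5 and 2.5 kb 50.7% and 53.7% of all genes had an open start. Olfactory receptors had 2 and 10 open starts within 0.5 and 2.5 kb, 10 at the 25th percentile and 8 by CPM. The median of open regions per locus, with flanks of 0 and 50 kb, was 3.5 and 16 for Treg identity, 2.5 and 11 for suppression, 7.5 and 20.5 for T cell, 1 and 6 for effector, 0 and 3 for other blood and 0 and 2 for genes outside blood, and 4 over all genes with 50 kb. At the 75th percentile it was 4 for suppression and 0 for effector, other blood and genes outside blood. Leaving out a library gave 1 outside blood each time and 1 to 2 over all genes. The lowest correlation between libraries, 0.794, was 0.858 without replicate 1 and 0.873 over regions with at least 10 reads in each library. Depth limits the weak end of the ranking, where values rest on few reads.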
